A study of Homo sapiens with 29 samples.

Results

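Pladienolide B (PladB) at 100 nM was compared with its vehicle, DMSO, for its effect on chromatin accessibility in parental 22Rv1 cells. 22Rv1 is an established human prostate cancer line. The 3 libraries labelled PladB 100 nM and the 3 labelled DMSO of parental cells were taken by treatment and genotype, 6 of the 29 libraries of the series. Peaks of these 6 libraries that overlapped by at least 1 bp were merged into 118111 regions, of the 166696 regions that all 29 libraries gave.

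The assay was ATAC-seq, in which a transposase inserts adapters into open DNA, so that sites free of nucleosomes gather reads and are called as peaks. The series asks how small molecules called stereoprobes, and PladB, change accessibility in 22Rv1 cells. Every treatment lasted 3 h. Control cells received 0.1% DMSO, and both parental groups here carried no engineered allele. Other parental cells received PladB at 10 nM or 1 of the stereoprobes WX-02-23 and WX-02-43 at 20 µM, with 3 libraries each. The engineered cells read here stably expressed PHF5A with the change Y36C and, under doxycycline (Dox), wild-type FOXA1 or C258A-FOXA1. They received DMSO or PladB 100 nM, with 2 libraries a group. The labels do not say whether libraries of a group came from separate cultures, nor whether an engineered line was 1 clone, so p-values measure only the spread between these libraries.

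PladB is a macrolide that binds the SF3b complex of the spliceosome in a pocket formed by SF3B1 and PHF5A. There it blocks recognition of the intron branch point, and transcripts are then left with introns or without exons. Mutation of PHF5A at Y36 is known to weaken the action of PladB on splicing. FOXA1 is the pioneer factor that opens chromatin for the androgen receptor in luminal prostate cells. ATAC-seq reads none of these RNA events directly.

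Each deposited list gives, for every peak, its position, its fold over background at the summit, and the −log10 of its p-value and q-value. From the fold and the p-value of each peak, the whole number of reads at the summit and the local background could be computed for 100% of peaks. This assumed that 1 was added to both reads and background before the fold was taken. The labels read here do not state that setting. The most frequent background value of a library, in reads per base, was used as its depth. It was 0.881, 1.002 and 0.921 in DMSO replicates 1 to 3 and 0.734, 0.718 and 0.662 in the PladB 100 nM libraries. The PladB 100 nM libraries were thus the shallower group, at 0.754 times the mean background of DMSO, with no overlap. All results below that depend on the number or width of peaks move with this difference, and its part in them was not tested. The regions are given by position in hg19, the build of the lists. Genes and sequences at them were not analysed here, and for the same reason the label 22Rv1 was not checked against marker genes.

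After PladB 100 nM, fewer peaks were called and they covered less of the genome, while most accessible sites held by DMSO cells were still present. The lists held 91632, 98193 and 93068 peaks in DMSO and 82538, 87426 and 83676 in PladB 100 nM. Every PladB 100 nM list was shorter than every DMSO list. The mean was 94298 ± 3449 peaks in DMSO and 84547 ± 2558 in PladB 100 nM (SD, n = 3 each). Peaks covered 37.6, 39.5 and 37.7 Mb in DMSO and 32.6, 33.5 and 31.3 Mb in PladB 100 nM. That is a mean of 38.2 ± 1.11 Mb against 32.5 ± 1.09 Mb (SD, n = 3), 15.2% less. With every list reduced to its 82538 peaks of smallest p-value, the covered length was 35.9 ± 0.425 Mb against 32.1 ± 0.844 Mb, so the groups remained apart when peak number was equal.

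**Figure D1:**
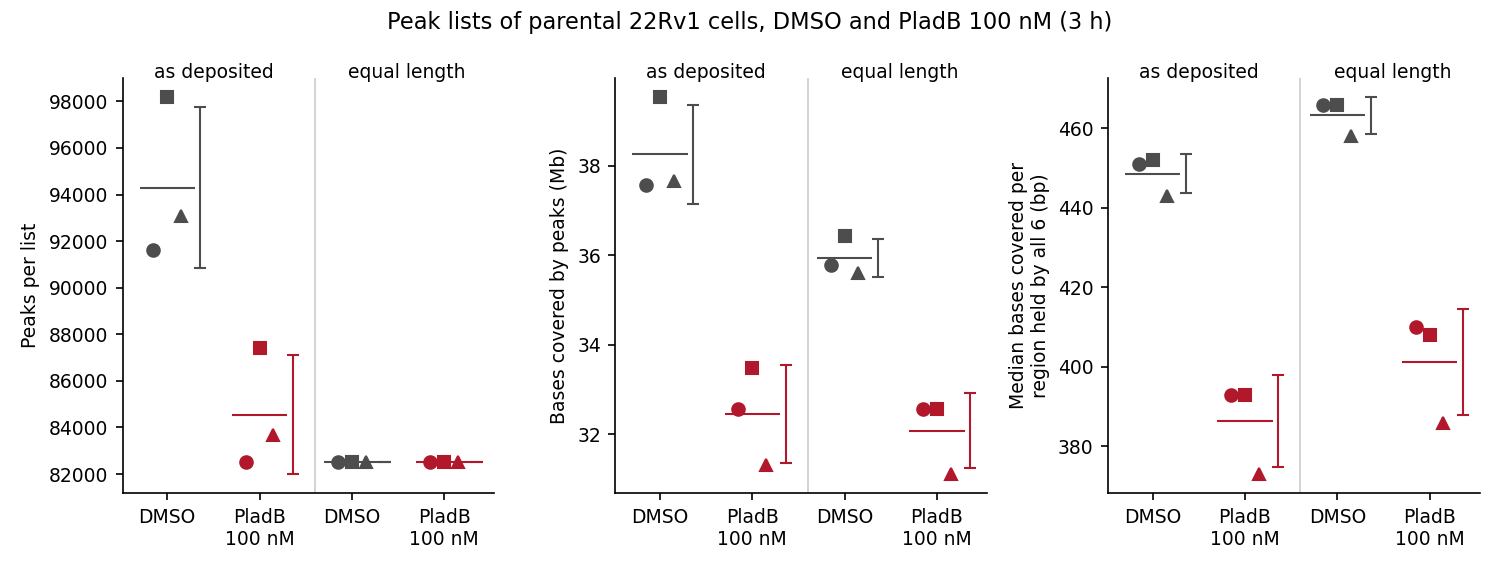
Each panel plots a measure of the peak lists for the 3 DMSO and the 3 PladB 100 nM libraries, as deposited and at equal length, with 1 marker per library, a line at the group mean and an error bar of 1 SD. The measures are peaks per list, bases covered in Mb and median bases covered per shared region, on axes that do not start at 0. The PladB 100 nM libraries lie below DMSO in all panels except peak number at equal length, which is the same by construction.

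Accessible sites were also narrower and more often broken into pieces. The median peak width was 313, 311 and 312 bp in DMSO and 307, 299 and 296 bp in PladB 100 nM, a difference of 11.3 bp. At equal list length the means were 341 ± 5.20 bp and 305 ± 6.25 bp (SD, n = 3), beside 312 and 300.7 bp as deposited. The cut took more of the weakest peaks from the longer DMSO lists and does not make depth equal. The larger gap is thus not read as more narrowing. Peaks of 1000 bp or more made up 4.50 ± 0.193% of DMSO peaks and 3.32 ± 0.478% of PladB 100 nM peaks. Peaks under 300 bp made up 47.2 ± 0.131% and 49.8 ± 1.42%. The list of PladB 100 nM thus held relatively fewer broad peaks and more small ones.

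The same held within sites that all 6 libraries shared, 59697 regions or 50.5% of all. Per region, the median covered length was 451, 452 and 443 bp in DMSO and 393, 393 and 373 bp in PladB 100 nM, 13.9% less on average. At equal list length the means were 463.3 and 401.3 bp. The share of these regions that a library held as several separate peaks was 7.49%, 6.68% and 7.33% in DMSO and 8.63%, 8.80% and 9.26% in PladB 100 nM. Fragmented sites were thus more frequent in each PladB 100 nM library than in any DMSO library.

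None of these per-library differences could pass a test. In 7 measures on the lists as deposited and 6 at equal length the groups did not overlap. An exact two-sided permutation test of 3 libraries against 3 then gives p = 0.1 for each (adjusted p = 0.1), the smallest p that this design allows.

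Narrowing was not the same for sites of all sizes. Shared regions were placed in classes by their mean covered length in DMSO, so the classes rest on the DMSO values themselves and the comparison is a description. The 13123 regions under 300 bp had a median of 253 ± 8.19 bp in DMSO and 243.7 ± 4.51 bp in PladB 100 nM (SD, n = 3). The 21447 regions from 300 to under 500 bp had 377 ± 4.0 bp and 335 ± 7.0 bp, a ratio of 0.889. The 20232 regions from 500 to under 1000 bp had a ratio of 0.893. For the 4895 regions of 1000 bp or more the medians were 1167 ± 7.09 bp and 1090 ± 26.5 bp, a ratio of 0.934. In proportion, sites of middle width were shortened most.

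Presence of a peak changed at few sites. Of all regions, 1999 had a peak in 3 of 3 DMSO libraries and in none of the PladB 100 nM libraries, which is 1.69% of the 118111 regions. These are called lost. The reverse pattern, called gained, was found for 227 regions, 0.192% of all. Among the 72065 regions that 3 of 3 DMSO libraries held, 2.77% were lost. Among the 63024 regions that 3 of 3 PladB 100 nM libraries held, 0.36% were gained. Lost regions outnumbered gained ones in the lists as deposited.

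The excess of lost over gained regions shrank when the lists were made equally long. The counts were then 891 lost (0.833% of 107004 regions, 1.39% of those held by 3 of 3 DMSO libraries) and 535 gained (0.5%, and 0.865% of those held by 3 of 3 PladB 100 nM libraries). Of the 1999 lost regions, 787 (39.4%) were also lost at equal length, and 192 of the 227 gained regions (84.6%) were also gained. The cut took more peaks from the DMSO lists, so it drops lost calls and keeps gained ones more readily by its construction. In reverse, 88.3% of the 891 regions lost at equal length were lost as deposited. Of the 535 gained at equal length, 35.9% were gained as deposited. With a fold of at least 6 required of each peak, 924 regions were lost and 346 gained. The direction of the excess was thus kept, and its size depended on how peaks were admitted.

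Lost sites were weak and small in DMSO cells. Their median summit height was 12 reads, with 9 reads at the 10th and 23 at the 90th percentile, against 30 reads for regions held by all 6 libraries. They covered 212 bp at the median, against 448 bp. Each list was divided by p-value into 4 strength classes of equal size. Strength class was read in each DMSO list, so a lost region gave 3 readings. Of these readings, 61.3% lay in the weakest class, 35.3% in the second, 3.44% in the third and 0% in the strongest. In 3 of the 1999 all 3 DMSO libraries ranked the region above the median of the list. Gained sites were weak as well, with a median summit of 10 reads. Of their readings in the PladB 100 nM lists, 67.3% lay in the weakest class. The lowest summits called were 6 reads in DMSO and 5 in PladB 100 nM.

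Loss fell off with strength. Both rest on the p-value of a peak, and weak regions stand nearest the limit for a call. Such an order is therefore in part built into the measure. Here each region was placed in a single class. Of the 7675 regions held by 3 of 3 DMSO libraries and placed in the weakest class, 1291 (16.8%) were lost. In the second class 688 of 19746 (3.48%) were lost, and in the third 20 of 21826 (0.0916%). In the strongest class 0 of 22818 were lost. At equal list length the shares in the first 3 classes were 8.80%, 1.54% and 0.0103%. In reverse, 2.60% of regions in the weakest class held by 3 of 3 PladB 100 nM libraries were absent from DMSO, and 6.40% at equal length. As deposited the share was 0.363% in the second class and 0% in the third and strongest, so gain fell off likewise. Width showed the same order, with 7.70% of regions under 300 bp lost, 0.548% of those from 300 to under 1000 bp and 0 of 4896 of those of 1000 bp or more.

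**Figure D2:**
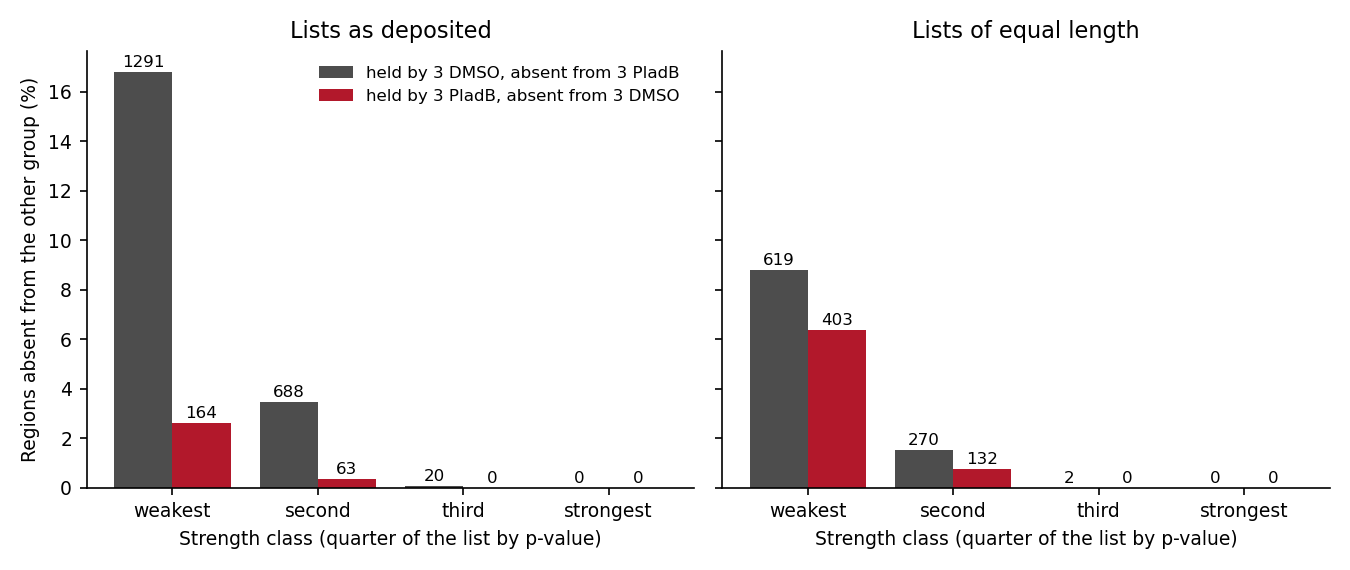
The share of regions held by all 3 libraries of one group and absent from all 3 of the other (vertical axis, percent) is plotted by strength class of the list (horizontal axis), for loss and gain, with lists as deposited and at equal length. Numbers above the bars count the regions. Loss reaches 16.8% in the weakest class and 0% in the strongest.

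The 5 lost regions named here had the highest mean strength percentile among those lost both as deposited and at equal length. The region chr8:128753825-128754720 had 35, 41 and 38 reads at its summit in the DMSO libraries and no peak in PladB 100 nM. It was broad, with 875, 779 and 870 bp covered in DMSO. A peak was called there in 1 of 3 PladB 10 nM libraries, 3 of 3 with WX-02-43, 2 of 3 with WX-02-23 and in 8 of 8 engineered libraries, those with PladB 100 nM included. Its fold over background was 6.08, 6.70 and 6.87, and it stood at percentiles 59.5, 67.1 and 65.7 of the DMSO lists, below the median of 68.0 for regions held by all 6 libraries. It was thus a site of middle strength, absent from the parental 100 nM lists and called under the same dose in the engineered lines.

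Lowest of the 5 in mean percentile, chr17:71183402-71183803 had 29, 28 and 26 summit reads in DMSO. It was called in 1 of 3 PladB 10 nM, 3 of 3 WX-02-43, 0 of 3 WX-02-23 and 8 of 8 engineered libraries. The pair on chromosome 12 was chr12:59200523-59200983, with 22, 27 and 23 reads, and chr12:58735535-58735908, with 22, 21 and 16. Both had a peak in all 9 libraries of the other parental treatments, so among parental groups no other treatment lacked them. Every engineered library held the first. The second was called in 2 of 2 wild-type FOXA1 libraries with DMSO and 1 of 2 with PladB 100 nM. In the C258A-FOXA1 line it was called in 0 of 2 with DMSO and 1 of 2 with PladB 100 nM. The remaining region, chr8:67815031-67815437, had 15, 21 and 16 reads. It was missing from 1 of the 9 libraries of the other parental treatments and was called in every engineered library.

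Among the gained regions, chosen in the same way, chr5:149828600-149828803 had 34, 21 and 23 summit reads in PladB 100 nM and no peak in DMSO. It was called in 3 of 3 PladB 10 nM and 3 of 3 WX-02-23 libraries, in 0 of 3 WX-02-43 libraries and in 0 of 8 engineered libraries. The region chr15:48483081-48483381, with 13, 12 and 18 reads, had that same parental pattern but was called in 7 of 8 engineered libraries. The region chr3:154041708-154041916 had 24, 24 and 26 reads, chr4:105893340-105893785 had 21, 20 and 19, and chr17:16593365-16593634 had 14, 9 and 14. These regions did not share that parental pattern. In PladB 10 nM, WX-02-43 and WX-02-23, the region on chromosome 3 was called in 3, 2 and 3 libraries. The one on chromosome 4 was called in 3, 3 and 2, and the one on chromosome 17 in 1, 1 and 2. Each was called in some but not all engineered libraries. All 5 gained regions were narrow to middle in width, from 150 to 446 bp in a PladB 100 nM library. With a fold of at least 6 required, those on chromosomes 3, 5 and 17 no longer met the rule for gain.

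Strength at the shared regions was compared next. Mean summit height was 37.1, 40.3 and 38.0 reads in DMSO and 33.8, 32.5 and 30.4 in PladB 100 nM, a ratio of means of 0.838. Divided by the background of each library, it was 42.1, 40.2 and 41.3 in DMSO and 46.0, 45.3 and 45.9 in PladB 100 nM, a ratio of 1.11. The order of the groups thus turned with the scale, and in each case the groups did not overlap (exact two-sided permutation test, p = 0.1, the smallest possible). The median fold was 9.21 ± 0.126 in DMSO and 9.02 ± 0.172 in PladB 100 nM (SD, n = 3), where the groups overlapped (exact permutation p = 0.3).

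Each shared region was then ranked by its best p-value within each library, a measure that uses only the order of sites. The order of sites was largely kept. The rank correlation over the 59697 regions, which are not independent, averaged 0.893 between DMSO libraries, 0.874 between PladB 100 nM libraries and 0.864 between the groups (range 0.856 to 0.870). For the shared regions, the 4 strength classes were formed again over these 59697 regions alone, with about equal numbers in each. By the median of 3 libraries, 43945 regions (73.6%) stayed in the same class, and 90.2% of the regions strongest in DMSO did. For 916 regions (1.53%) every PladB 100 nM library placed the region in a lower class than every DMSO library, and for 762 (1.28%) in a higher one. In 10 regions the step down was 2 classes or more, and in 1 region the step up was.

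Ranks were turned into normal scores and fitted across all 59697 regions with limma, with Benjamini-Hochberg adjustment. At an adjusted p under 0.05, 71 regions fell in rank (0.119% of those tested) and 25 rose (0.0419%). At an unadjusted p under 0.05 there were 3598 lower (6.03%) and 3152 higher (5.28%). The groups did not overlap in 4801 lower regions (8.04%) and 4777 higher regions (8%). The called sites are thus a small group, with lower calls more frequent than higher ones.

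These counts are sensitive to the fit. When ranks were taken by fold, limma called 1 lower and 0 higher, with 3682 (6.17%) and 3114 (5.22%) at an unadjusted p under 0.05. Without a mean-variance trend limma called 0 and 0, with 3130 and 2907 unadjusted. Leaving out DMSO replicate 1, 2 or 3 gave 6, 12 and 9 lower and 1, 8 and 3 higher. Leaving out PladB 100 nM replicate 1, 2 or 3 gave 38, 98 and 48 lower and 3, 12 and 5 higher. Of the 71 regions, 64 were also called at equal list length, and of the 25, 21 were. The cut by p-value keeps the order of the peaks that remain, so such repeated calls largely follow from the construction. By fold, all 71 and all 25 had the same sign, and 65 and 25 of them had an unadjusted p under 0.05. Fold and p-value of a peak rest on the same reads and background, and the same libraries chose the regions. This likeness is therefore largely built in and is no separate check of the calls.

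By these classes of shared regions, the 71 that fell were strong sites in DMSO cells, with 31 in the third and 38 in the strongest class. The same libraries chose the regions, so the classes and read ratios given here only describe them. Their median summit height was 48, 49 and 47 reads in DMSO and 25, 25 and 21 in PladB 100 nM. The median ratio of reads was 0.488, from 0.283 to 0.727, beside 0.830 over all regions tested. They covered 614, 613 and 614 bp in DMSO and 476, 490 and 470 bp in PladB 100 nM, and 69 of the 71 were narrower on average, beside 45925 of all 59697 regions. They lay on 19 chromosomes, and 2 of them had another of the 71 within 50 kb. The called sites were scattered over the genome.

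The region chr7:149688888-149689357 had 30, 32 and 30 summit reads in DMSO and 9, 9 and 8 in PladB 100 nM, the largest drop in score among the 71. Its difference in normal score was −2.11 (SE 0.30, adjusted p = 0.000334 by limma). Among shared regions it went from percentiles 64.8 to 68.4 in DMSO to percentiles 3.96 to 6.08 in PladB 100 nM. All other parental and engineered libraries held a peak there.

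At chr18:61861397-61862184 the summits had 42, 45 and 51 reads in DMSO and 10, 11 and 21 in PladB 100 nM (difference −1.88, limma adjusted p = 0.00144). PladB 100 nM replicate 3 stood between the other 2 libraries and DMSO. At chr1:44496958-44497367 they had 42, 53 and 45 reads against 21, 19 and 16 (difference −1.59, adjusted p = 0.0301). The 2 remaining named regions, chr14:27672415-27673133 and chr8:90024687-90025238, had 21, 23 and 27 against 9, 11 and 7 reads and 21, 28 and 21 against 8, 11 and 8. Their limma adjusted p-values were 0.0478 and 0.0412. In each of the 5 the read ratio lay between 0.283 and 0.4, beside a ratio of the backgrounds of 0.754. The same libraries chose these regions for their drop in rank, so low ratios follow from the choice.

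The 25 regions that rose had median summits of 33, 32 and 30 reads in DMSO and 40, 42 and 41 in PladB 100 nM. Their read ratio had a median of 1.36, from 1.08 to 1.71, beside 0.830 over all regions tested. These libraries chose the regions by rank, so ratios above that value follow from the choice. By strength in DMSO, 9 were in the weakest class, 1 in the second, 13 in the third and 2 in the strongest. They lay on 14 chromosomes with none within 50 kb of another.

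The region chr6:142558350-142558860 had the largest gain in score among the 25. It had 8, 12 and 8 summit reads in DMSO and 16, 15 and 17 in PladB 100 nM (difference 1.95, SE 0.43, limma adjusted p = 0.0412). All other parental libraries held it, and 1 of 8 engineered libraries did. At chr17:64344779-64345045 the reads were 12, 13 and 12 against 23, 22 and 15 (difference 1.82, limma adjusted p = 0.0412).

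The other 3 were chr18:42630921-42631260, chr5:176264620-176264998 and chr4:160169878-160170354. The first had 9, 13 and 11 reads in DMSO and 18, 17 and 19 in PladB 100 nM. The second had 15, 16 and 15 against 23, 25 and 20, and the last 11, 14 and 13 against 24, 16 and 20. Their limma adjusted p-values were 0.0303, 0.0446 and 0.0334. All 5 stood at or below percentile 13.2 of shared regions in DMSO and between percentiles 27.0 and 64.0 in PladB 100 nM.

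**Figure D3:**
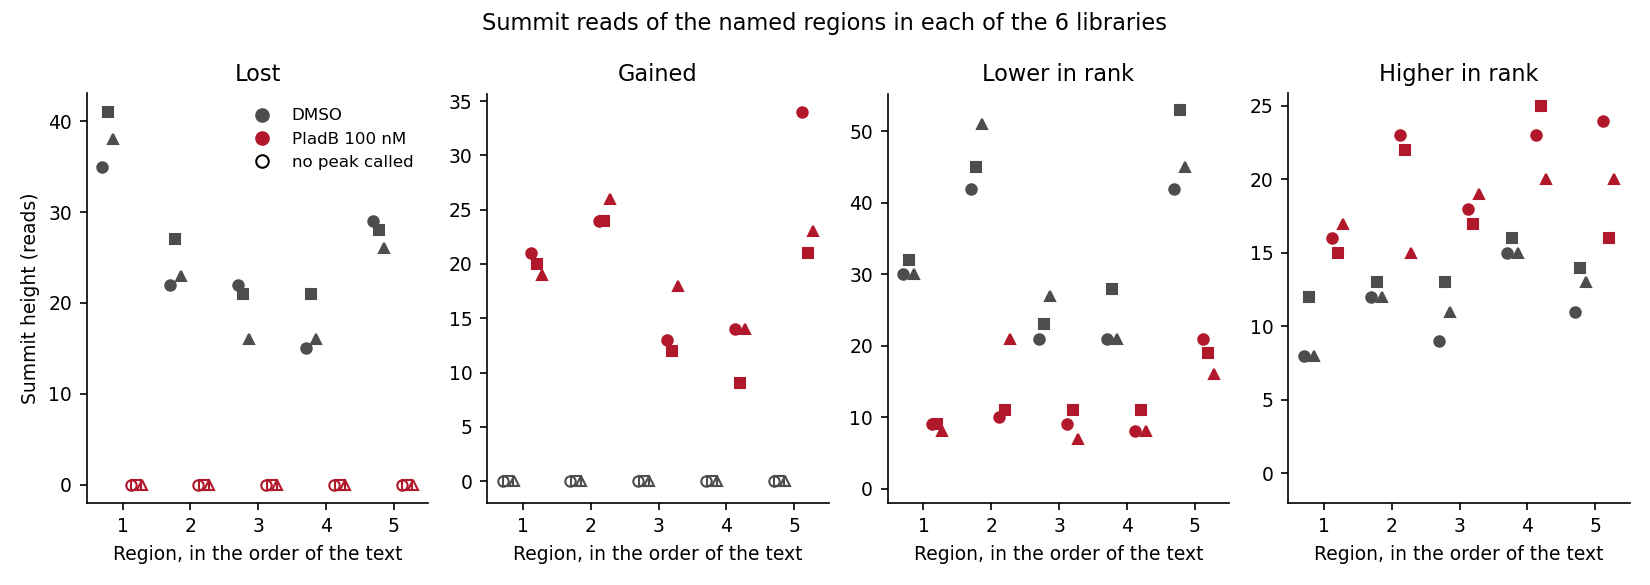
Summit height in reads (vertical axis) is plotted for the 5 named regions of each kind (horizontal axis) in the 3 DMSO and 3 PladB 100 nM libraries, with 1 marker shape per replicate. The axis label names the order of the text, but the regions follow the rule that chose them. From left to right, lost regions start at 128753825 (chromosome 8), 59200523 and 58735535 (both 12), 67815031 (8) and 71183402 (17). Gained regions lie on chromosomes 4, 3, 15, 17 and 5, and those lower in rank on 7, 18, 14, 8 and 1. Those higher in rank follow the text. Open symbols at 0 mark libraries in which no peak was called and do not mean that no read was present.

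Width was then fitted per region with limma as the log2 of covered bases, with each library centred on its own median. By this fit 0 regions narrowed and 0 widened at an adjusted p under 0.05. At an unadjusted p under 0.05 there were 2134 narrower (3.57%) and 8643 wider (14.5%). Without centring, 50 regions narrowed (0.0838%) and 1 widened (0.00168%), with 8162 (13.7%) and 402 (0.673%) unadjusted. Per region, the median difference before centring was −0.11 on the log2 scale, and 45925 of the 59697 regions were narrower on average. Centring on library medians raised every difference by the same amount, which was larger in size than that median. The region chr7:18885851-18886856, for example, went from −1.58 to −1.37. Before centring the groups did not overlap in 11504 narrower (19.3%) and 966 wider regions (1.62%), and after it in 2425 (4.06%) and 14081 (23.6%). The direction of the split therefore turned with centring.

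The 50 regions called without centring went from a median of 675.7 bp in DMSO to 285.2 bp in PladB 100 nM, a median difference of −1.17 on the log2 scale. None of them was among the 71 that fell in rank. Their read ratio had a median of 0.681, beside 0.830 over all regions. Of the 50, 30 were a single peak in 3 of 3 DMSO libraries, beside 51067 of all 59697 regions, so single peaks were less frequent among them.

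In the centred fit the regions with the smallest p and no overlap between groups are given as a description, since none passed. At chr11:69469223-69471056 the covered length was 1743, 1773 and 1787 bp in DMSO and 788, 906 and 869 bp in PladB 100 nM. Its summit stayed near its height, with 107, 102 and 96 reads against 102, 81 and 86. At chr7:18885851-18886856 the lengths were 971, 945 and 923 bp against 290, 362 and 299 bp. At chr1:98553446-98554337 they were 856, 768 and 753 bp against 343, 337 and 293 bp. Their summits had 36, 49 and 34 against 27, 20 and 18 reads (ratio 0.546), and 30, 28 and 32 against 17, 27 and 15 reads (ratio 0.656). The covered length was shorter at all 3 sites in every PladB 100 nM library, while the height was close to DMSO at the site on chromosome 11 alone.

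Among wider sites, chr11:117297033-117297474 covered 167, 169 and 182 bp in DMSO and 440, 421 and 383 bp in PladB 100 nM, with like summit heights (14, 17 and 15 against 16, 14 and 15 reads). The region chr1:47133245-47134464 covered 1017, 1016 and 979 bp against 1144, 1214 and 1145 bp. At chr3:50949702-50950578 it was 652, 662 and 631 bp against 877, 817 and 788 bp. The limma adjusted p-values of the 6 named width regions lay between 0.129 and 0.131.

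**Figure D4:**
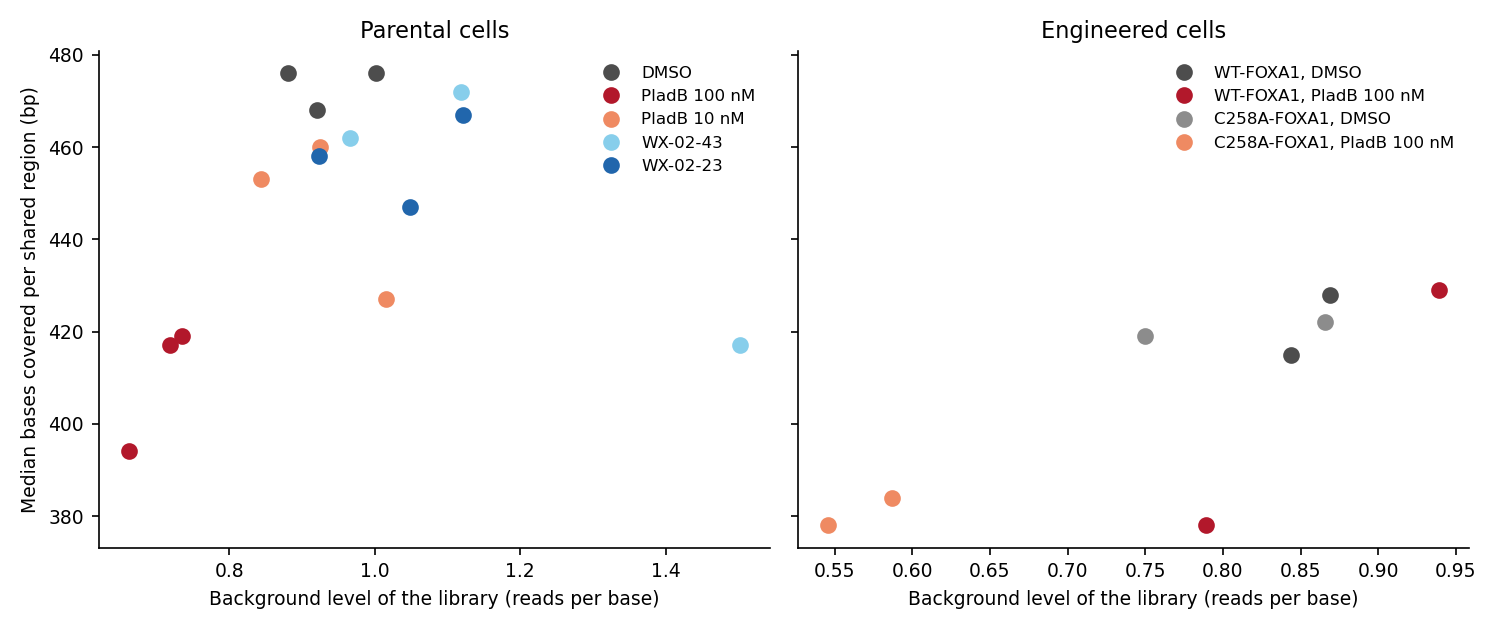
The median covered length of shared regions in bp (vertical axis) is plotted against the background of each library in reads per base (horizontal axis), for parental and engineered libraries, with 1 point per library. The 3 PladB 100 nM libraries of parental cells have the lowest background among parental libraries, and 2 of the 3 have widths close to that of the third WX-02-43 library, which has the highest background.

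Width and depth were set side by side over all parental libraries, at 55079 regions that all 15 held. The median covered length was 476, 476 and 468 bp in DMSO and 419, 417 and 394 bp in PladB 100 nM. It was 460, 453 and 427 bp in PladB 10 nM, 462, 472 and 417 bp in WX-02-43 and 467, 447 and 458 bp in WX-02-23. Background was 0.924, 0.843 and 1.016 in PladB 10 nM, 0.966, 1.119 and 1.502 in WX-02-43 and 1.121, 1.048 and 0.923 in WX-02-23. WX-02-43 replicate 3 thus had the highest background and a width within the range of PladB 100 nM. In engineered cells, over 42342 regions, the lengths were 428 and 415 bp with DMSO and 378 and 429 bp with PladB 100 nM in the wild-type FOXA1 line. In the C258A-FOXA1 line they were 419 and 422 bp with DMSO and 378 and 384 bp with PladB 100 nM. Background in that line was 0.75 and 0.866 with DMSO and 0.546 and 0.587 with PladB 100 nM, so the libraries with shorter regions were the shallower ones. In the wild-type FOXA1 line it was 0.869 and 0.844 with DMSO and 0.789 and 0.939 with PladB 100 nM, and the groups overlapped in both background and width.

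The lost and gained regions were then looked up in parental libraries that had no part in choosing them. These levels are not set against DMSO, since the DMSO libraries chose the regions. Of the 1999 lost regions, 61.9%, 49.6% and 44.8% had a peak in the PladB 10 nM libraries. The shares were 71.7%, 74.3% and 51.6% with WX-02-43 and 58.5%, 50.7% and 53.6% with WX-02-23. Regions held by all 6 libraries had a peak in 98.9%, 98.7% and 98.2% of cases by group mean. The difference of PladB 10 nM from WX-02-43 was −13.8 points (exact two-sided permutation p = 0.2, adjusted over 4 tests 0.6). From WX-02-23 it was −2.18 points (exact permutation p = 0.7, adjusted 0.7). Neither difference passed the test. The first ran from −20.9 points without WX-02-43 replicate 3 to −9.58 without WX-02-43 replicate 2. The second ran from −7.09 points without PladB 10 nM replicate 1 to 1.47 without PladB 10 nM replicate 3, so its sign rests on single libraries.

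Of the 227 gained regions, a mean of 56.8 ± 9.53% had a peak in PladB 10 nM, 43.5 ± 14.6% in WX-02-43 and 62.4 ± 3.95% in WX-02-23 (SD, n = 3). Over all 118111 regions the means were 71.5%, 72.1% and 72.4%. The difference of PladB 10 nM was 13.4 points from WX-02-43 (exact permutation p = 0.3, adjusted 0.6) and −5.58 points from WX-02-23 (exact permutation p = 0.5, adjusted 0.667). WX-02-43 replicate 3, at 28.2%, was the lowest of the 9 libraries. Without it the first difference was 5.73 points, and without WX-02-43 replicate 2 it was 20.3. The second ran from −10.9 points without PladB 10 nM replicate 1 to −1.62 without PladB 10 nM replicate 2.

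The sites called by rank stood at different levels in these libraries. Over the 71 regions that fell, the median percentile among shared sites was 78.0, 74.6 and 75.9 in DMSO and 42.1, 45.2 and 40.3 in PladB 100 nM, the values that chose them. In libraries that did not, it was 60.2, 57.9 and 55.7 in PladB 10 nM, 69.9, 72.1 and 71.8 in WX-02-43 and 60.5, 67.5 and 61.5 in WX-02-23. Every PladB 10 nM and WX-02-23 library lay below every WX-02-43 library. By region, PladB 10 nM was below WX-02-43 in 63 of 71 (88.7%, beside 49.8% of all 55079 regions). WX-02-23 was below WX-02-43 in 53 of 71 (74.6%, beside 48.4%).

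Over the 25 regions that rose, the median percentile was 64.3, 64.9 and 65.4 in PladB 10 nM, 53.7, 55.5 and 61.9 in WX-02-43 and 67.1, 67.0 and 71.1 in WX-02-23. PladB 10 nM was above WX-02-43 in 19 of 25 (76%, beside 50.2% of all regions), and WX-02-23 was above it in 19 of 25 (beside 51.6%). Without WX-02-43 replicate 3 the counts were 63 and 52 of 71 and 21 and 18 of 25. These counts were added after seeing the data and have no test. The doses of PladB and the stereoprobes differ, so their levels are given side by side.

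**Figure D5:**
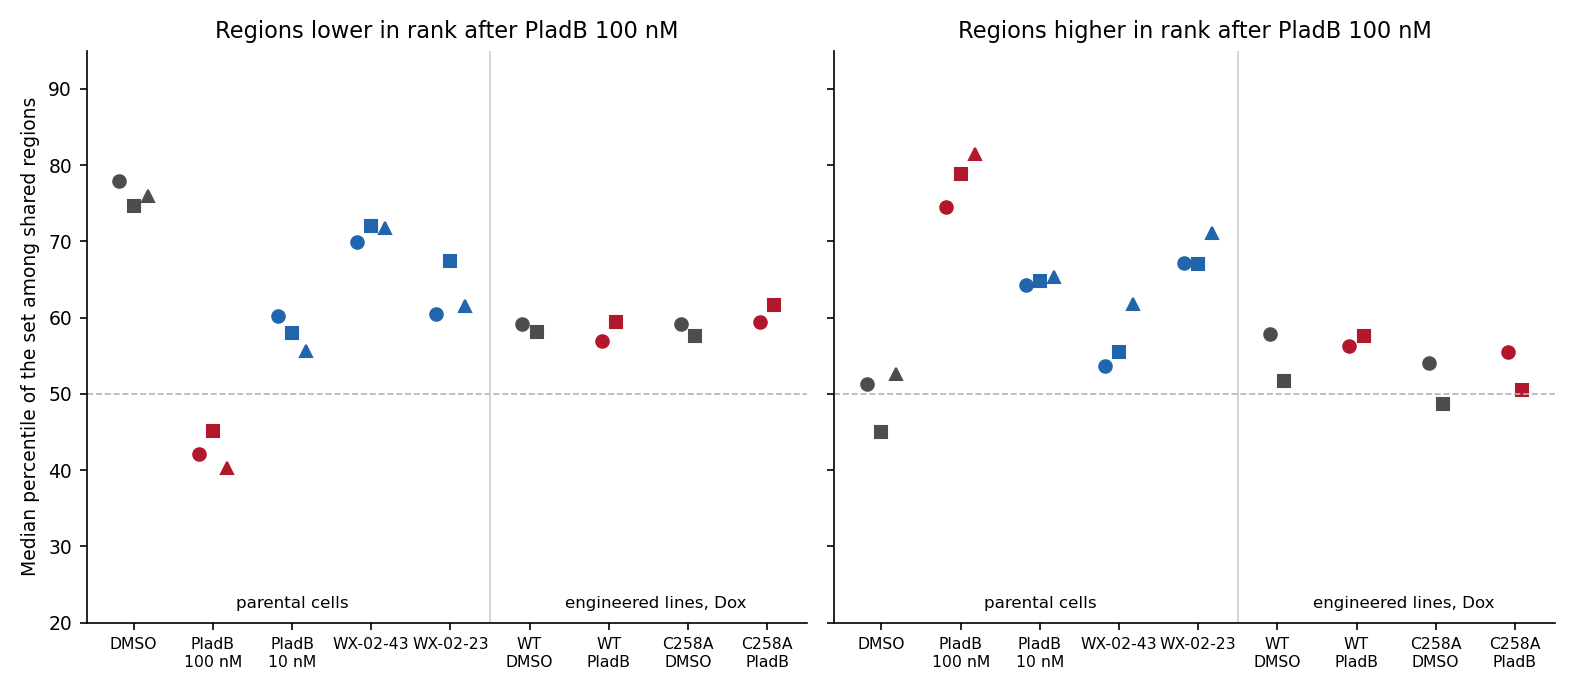
The median percentile of the regions that fell and that rose in rank (vertical axis, percent of shared regions) is plotted per library for all parental and engineered groups (horizontal axis), with 1 marker per library and a dashed line at 50. DMSO and PladB 100 nM of parental cells chose the regions. The other parental groups lie between them, and in engineered groups the DMSO and PladB 100 nM libraries lie within a few percentiles of each other for the regions that fell.

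Finally the same sites were read in engineered cells, which carry Y36C-PHF5A. Of the 1999 lost regions, 35.3% and 33.5% had a peak in the wild-type FOXA1 line with DMSO and 23.3% and 37.0% with PladB 100 nM. In the C258A-FOXA1 line the shares were 30.7% and 32.3% with DMSO and 24.5% and 26.1% with PladB 100 nM. The mean change over both lines was −5.23 points (exact two-sided permutation within lines, p = 0.167, smallest possible 0.0556). Over any region of the 6 parental libraries it was −4.11 points. At equal list length the change was 1.25 points (exact permutation p = 0.0556), so the direction turned with the length of the lists. Without PladB 100 nM replicate 1 of the wild-type FOXA1 line the change was −1.80 points, and without replicate 2 it was −8.65. For the 227 gained regions the change was −4.85 points (exact permutation p = 0.333), and at equal list length −0.11 points (exact permutation p = 1). Without those same libraries it was −0.881 and −8.81 points.

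Of the 71 regions that fell in parental cells, all 8 engineered libraries held 63. Their median percentile was 59.2 and 58.1 with DMSO and 57.0 and 59.4 with PladB 100 nM in the wild-type FOXA1 line. In the C258A-FOXA1 line it was 59.2 and 57.6 with DMSO and 59.5 and 61.7 with PladB 100 nM. The change in median score was 0.02 (exact permutation p = 0.444), and 31 of 63 (49.2%) were lower with PladB 100 nM, beside 49.7% of all 42342 regions. Of the 25 that rose, 20 were held by all 8, with a change of 0.05 (exact permutation p = 0.389) and 10 of 20 (50%) lower. The engineered lines were not tested against the parental cells, and p-values that miss the threshold do not show that PladB had no effect at these sites.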

How the data were processed

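The labels' protocols name an ATAC-seq kit for the libraries, made from 22Rv1 cells. Per the submitters' processing notes, Bowtie2, MACS2 and the build hg19 were used. For versions, peak thresholds and read filters, nothing was stated in the labels read here. The deposited lists are 1 per library. Their columns hold a fold ratio over background at the summit, −log10 p-values and −log10 q-values, per the column order of the deposited narrowPeak format. The values themselves give a highest q of 0.01 and a narrowest peak of 150 bp. Raw reads and coverage were not used here.

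The number of summit reads and the local background were computed from the fold and the Poisson p-value of each peak, with a tolerance of 0.001 in −log10 p. Peaks of the 6 lists were merged with a minimum overlap of 1 bp. A library holds a region if any peak of it overlaps. Ranks used the best −log10 p of a library in a region, and limma 3.58.1 in R 4.3.3 fitted normal scores or log2 covered bases with a trend and Benjamini-Hochberg adjustment at 0.05. Per-library values had exact two-sided permutation tests in Python 3.11.15 with scipy 1.17.1. Scripts were tested on simulated data.

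The regions named are the 5 lost and 5 gained of highest mean percentile called also at equal list length. They are joined by the 5 lower and 5 higher with the largest score difference among those called, and by 3 narrower and 3 wider. Where none passed, those of smallest p without overlap were taken. The comparison, its lists and its rules were chosen with earlier results of these data known. Alternatives were lists of equal length, a q-value of 1e-05, a fold of 6, 50% coverage of a region, other scalings, each library left out and a replicate block. Covered length of shared regions, the shares of peaks under 300 bp and of at least 1000 bp, and leaving out libraries for the other parental treatments were added after seeing the data.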

Additional observations from a re-analysis of the deposited data

How the results depend on the processing

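The differences in peak number, covered length, median width and regions held as several peaks kept their sign under every alternative run for them. The 1999 lost and 227 gained regions became 891 and 535 at equal list length, 924 and 346 at a fold of at least 6, and 10230 and 2076 when 1 library of the 6 could differ. Leaving out 1 library, which relaxes the rule, gave 2987 to 3962 lost and 401 to 719 gained. Regions lower and higher in rank (71 and 25) were 1 and 0 by fold and 0 and 0 without a trend, and 6 to 98 and 1 to 12 with 1 library left out. Regions narrower and wider (0 and 0) were 5 and 2 at a fold of at least 6 and 50 and 1 without centring, and 1 region was narrower with width as a rank. The cause was not tested.

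Replicate numbers are shared between the groups. Deviations of same-numbered libraries correlated at 0.0024, 0.0005 and 0.0042, so no pairing by number was seen by this measure. Whether same-numbered libraries were made together is not settled by these values. With a replicate block, limma called 229 lower and 112 higher in rank and 0 narrower and 0 wider.

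In engineered lines, the change of lost regions with a peak was 1.25 points at equal length. The change in score of the regions lower in rank was −0.0056 with missing peaks at the lowest rank and −0.175 to 0.0688 with 1 library left out. For the regions higher in rank it was −0.146 to 0.394. The share of lost regions in PladB 10 nM minus WX-02-23 was −7.09 to 1.47 points with 1 library left out. The precision that depth allows for presence calls was not tested.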

Other observations

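Lost regions were found on many chromosomes. Of regions held by 3 of 3 DMSO libraries, the lost share was 3.56% on chromosome 5 (137 of 3851), the highest, and 1.42% on chromosome 21 (12 of 843), the lowest. At equal list length these were 1.77% and 1.35%, with 0.935% on chromosome 22, so the order of chromosomes depended on the lists. Lost regions lay a median of 11167 bp from the nearest region held by all 6 libraries, beside 12077 bp between regions of that class. Another lost region lay within 50 kb of 9.05% of them. Lost sites thus had neighbours that were kept at about the usual distance.

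At 46860 shared regions the distance between the summits of 2 libraries had a median of 25.3 bp within DMSO, 28.0 bp within PladB 100 nM and 27.7 bp between the groups. The distance between groups lay within the range of that within groups.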
